A study of Mus musculus with 4 samples.

Results

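Cytosolic ribosomal proteins are the protein components of the ribosome of the cytoplasm. They were taken as all gene symbols made of Rpl or Rps, a number and at most 1 letter of a, x, y or l with a further number, together with Rplp0, Rplp1, Rplp2 and Rpsa. This gave 84 members among 23284 symbols: 46 of the large subunit, 31 of the small subunit and 7 paralogs or variant copies. The rule used names and no measured value. It left out 18 other names beginning with Rpl or Rps, among them 10 Rps6k kinases, 6 pseudogene names and Rpl36al, and it does not reach Fau and Gnb2l1 (Rack1), whose products are also part of the ribosome.

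The cells were macrophages grown from the bone marrow of wild-type mice, a primary culture, with 1000000 cells in each well of a 24-well plate. Every culture first received lipopolysaccharide (LPS), a bacterial cell wall component, at 1 µg/ml for 1 h. A 24 h incubation followed, either with recombinant mouse galectin-1, a lectin that binds galactose-containing sugars, or with its vehicle phosphate-buffered saline (PBS). Each of these groups has 2 libraries, and both had LPS. The sources used here give neither the galectin-1 dose nor the age of the mice, and they do not say whether the libraries are separate cultures or animals. A p-value therefore speaks only of the spread between these libraries, which may be technical.

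The ribosome joins a small subunit, which holds the mRNA and decodes it, to a large subunit, which forms peptide bonds. Nearly all of these proteins are made in step, since each ribosome holds a single copy of most of them. Their mRNAs are among the most abundant of any cell, and their genes have left many processed pseudogenes in mammalian genomes. The mRNAs typically start with a terminal oligopyrimidine (TOP) tract, a C followed by a run of C or T at the very 5′ end, through which mTOR signalling and Larp1 set their translation, so that mRNA levels and protein output can part. In macrophages, LPS and growth signals both feed into mTOR.

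To show this shared feature, the 30 bases around the annotated RefSeq starts (GRCm38.p6) of 8 members are given below, 15 before the start and 15 from it on, 5′ to 3′ on the gene's strand. They were chosen for long complete tracts (Rpl35 and Rps18), for a place in the results (Rps6, Rpl13a, Rps27, Rps27l and Rpl22l1) and, without a tract, as the member of smallest p with a coding gene (Rpl24). Capitals mark the longest stretch in each window of a C followed by at least 4 bases that are C or T, as far as the window shows it. Only stretches beginning within 10 bases of the start were sought, and shorter ones stay in lower case. A run that begins earlier was taken only from 10 bases before the start on, as in Rps27l.
Rpl35, chr2:39005117-39005146, minus strand: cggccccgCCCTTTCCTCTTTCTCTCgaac
Rps18, chr17:33955651-33955680, minus strand: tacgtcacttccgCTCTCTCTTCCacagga
Rps6, chr4:86857353-86857382, minus strand: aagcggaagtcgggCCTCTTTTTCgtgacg
Rpl13a, chr7:45128731-45128760, minus strand: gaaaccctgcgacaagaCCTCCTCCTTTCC
Rps27, chr3:90213634-90213663, minus strand: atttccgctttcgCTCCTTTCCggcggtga
Rps27l, chr9:66946071-66946100, plus strand: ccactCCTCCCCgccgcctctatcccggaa
Rpl22l1, chr3:28805493-28805522, plus strand: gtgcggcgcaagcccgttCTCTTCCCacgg
Rpl24, chr16:55966260-55966289, plus strand: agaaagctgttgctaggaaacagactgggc
Windows of 300 bases, 250 before the start and 50 after it, were found for 63 members, 75 windows in all. Such a tract near the start, read on the gene's strand alone, was in 41 of the 75 windows (54.7%), against 30.7% of 32851 windows of all genes. Runs cut at 10 bases before the start were counted in both. The ETS factor core CCGGAAG, searched on both strands over the whole window, was in 36.0% of members' windows and 8.86% of all windows; its reverse form CTTCCGG can overlap a pyrimidine tract. The letters CACGTG, an E-box, were in 10.7% and 7.15%, TATAAA in 9.33% and 13.6%, and GCCATCTT, a YY1 site, in 10.7% and 2.75%. A single consensus form of the NF-kB site was in none of the members' windows and in 0.155% of all windows. A match is a description of the letters, since annotated starts can lie some bases from the true start.

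The libraries held 541138 to 557661 FPKM in total. Macrophage markers were high, with a sum over 9 genes of 9754 and 9740.1 FPKM with vehicle and 10546 and 10536 FPKM with galectin-1, led by the lysozyme gene Lyz2 with a mean of 5974 FPKM. Markers of other cells were low in every library: 10 dendritic cell genes summed to 12.1 to 15.5 FPKM (highest Fscn1), 9 fibroblast genes to 17.9 to 21.99 FPKM (highest Bgn), 6 B cell genes to 2.74 to 3.60 FPKM (highest Cd79b) and 8 neutrophil genes to 1.34 to 2.92 FPKM (highest S100a8). The 7 T and NK cell genes (highest Klrb1c) and the 6 erythroid genes (highest Alas2) each summed to at most 0.199 FPKM. Listed at 0 in every library were Elane, Ltf, Ngp and Retnlg of the neutrophil list, Cd3e, Cd3g and Nkg7 of the T and NK cell list, and 4 erythroid genes, both alpha globins among them. Macrophage and fibroblast sums were higher and dendritic cell sums lower with galectin-1, in both libraries against both. Single genes weighed heavily in these sums. Lyz2 had 5761 and 5642 FPKM with vehicle and 6269 and 6223 FPKM with galectin-1, and Fscn1 11.3 and 11.7 FPKM and 7.84 and 8.18 FPKM. Of 9 macrophage genes 8 were positive and 1 negative, and of 3 tested dendritic cell genes 1 was positive and 2 negative. All 6 tested fibroblast genes were positive, where 50.7% of all tested genes were. Among the tested markers Fscn1 alone passed: it fell (-0.47, limma adjusted p = 0.0425), with 11.5 ± 0.256 FPKM for vehicle and 8.01 ± 0.245 FPKM for galectin-1 (SD, n = 2 per group). The part of these markers in the results below was not tested. In a bulk sample, fewer cells of a type and less RNA per cell cannot be told apart.

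Ribosomal protein transcripts held 9.11% to 9.36% of the summed FPKM of a library. FPKM is scaled to transcript length, so levels of different genes are set beside each other here as deposited. Whether that scaling is even for short transcripts was not tested. Of the 84 members, 11 had a mean over the 4 libraries of at least 1000 FPKM, 62 lay between 100 and 1000 FPKM, 7 between 1 and 100 FPKM, and 4 below 1 FPKM. The median over members was 602, 597, 629 and 607 FPKM in vehicle replicates 1 and 2 and galectin-1 replicates 1 and 2. There were 17 members among the 100 symbols of highest mean in the whole data set.

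Rps29, a small zinc-binding protein of the small subunit, was highest with 2020.0 and 1966 FPKM with vehicle and 2067 and 2057 FPKM with galectin-1. Rplp1 of the P stalk followed with 1883 and 1795 FPKM and with 1881 and 1875 FPKM. Rpl38 and Rpl41 had means of 1506 and 1439.9 FPKM, Rpl10, which helps join the subunits, 1412 FPKM, and Rps12 1198 FPKM. Rps28 and Rps9, a protein needed for decoding accuracy, had means of 1140.3 and 1075 FPKM. Short proteins stood high: the 9 core members with under 300 coding bases had a median level of 870.0 FPKM, and the 22 of at least 600 coding bases one of 488 FPKM. Across the 77 core members Spearman's rho between mean FPKM and coding length was -0.333, a description over genes that share libraries and pathway.

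A few core members were far below the rest. Rpl26 was listed at 0 in all 4 libraries. Rpl30 had 4.31 and 6.12 FPKM with vehicle and 12.96 and 5.85 FPKM with galectin-1. Rps27 had 25.6 and 14.5 FPKM and 54.8 and 21.0 FPKM, Rps15a had a mean of 40.5 FPKM and Rpl22 one of 47.7 FPKM. These 5 are the core members under 60 FPKM, where the median of core members was 659 FPKM. An exact 0 for a gene that all cells use can be a failed estimate, so Rpl26 is given only as listed at 0.

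**Figure D1:**
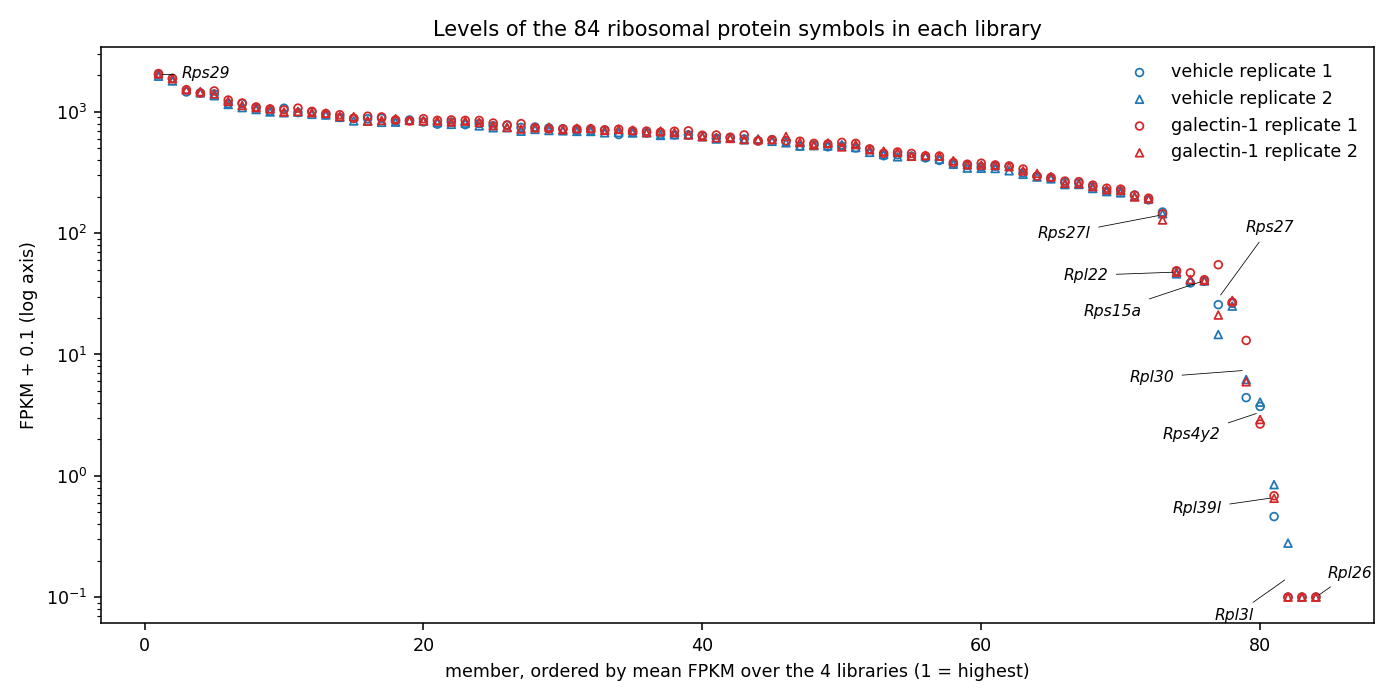
FPKM + 0.1 on a log axis for the 84 members, ordered by mean level, with 1 symbol per library (blue vehicle, red galectin-1, circle replicate 1, triangle replicate 2). Most members lie above 100 FPKM and reach 2067 FPKM, with the 4 libraries close together, and Rps27, Rpl30, Rps4y2, Rpl39l and Rpl26 fall away at the right.

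Sequence shared with other genes was measured on the 50-base words of each member's principal GENCODE transcript. The value is the share of these words that also occur in transcripts of genes elsewhere in the genome. For many members most such genes were annotated as pseudogenes, but for Rps15a only 9 of 39 were. Of the 77 core members, 76 shared such a word with at least 1 other gene, and 30 shared at least 50% of their words. The median was 43.9%. Rps27 was the extreme, with 98.6% of its words in 9 other genes, and Rpl9 had 93.3%. Rpl26 shared 61.0%, Rpl30 29.7%, Rps15a 6.28% and Rpl22 5.20%. The share is over the whole transcript, so long noncoding parts can lower it. The transcript of Rps15a had 5179 bases, 390 of them coding, and that of Rpl22 2051 bases, 384 of them coding. The share within the coding part was not measured. Of the 2 members with the most shared words named here, Rpl9 had a mean of 605.5 FPKM and Rps27 one of 29.0 FPKM. Across the 77 core members Spearman's rho between mean FPKM and the share of words was 0.044, a description without a test. The sources used here do not say how the deposited values divide reads among copies, so levels of members with much shared sequence are uncertain. Of the names left out, Rpl34-ps1 carried a high value, with 73.4 and 76.7 FPKM with vehicle and 125 and 86.4 FPKM with galectin-1.

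**Figure D2:**
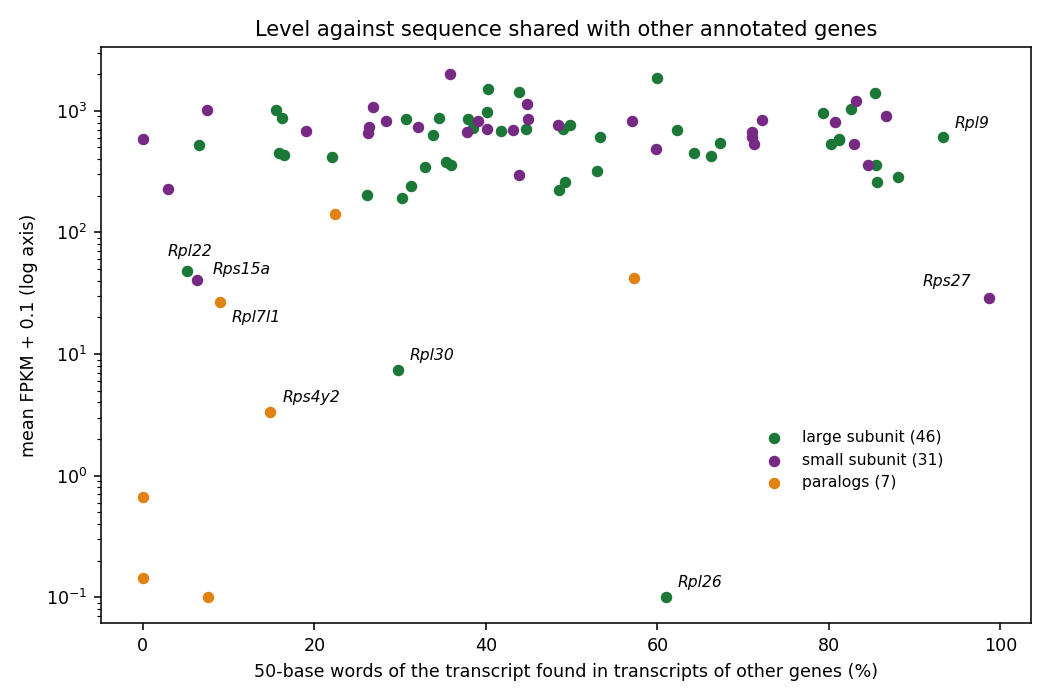
Mean FPKM + 0.1 (log axis) of each member against the percentage of the 50-base words of its whole transcript, noncoding parts included, found in other annotated genes. Levels above 100 FPKM occur over nearly the whole range, up to Rpl9 at 93.3%, and the 5 core members under 60 FPKM are spread from Rpl22 at 5.20% to Rps27 at 98.6%.

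Many members house small nucleolar RNAs, guides of rRNA modification, in their introns. Within the bounds of 24 members lay 35 small RNA entries, of which 26 were listed at 0 in every library. The others jumped between libraries: Snord35a inside Rpl13a was at 0 in 3 libraries and at 323 FPKM in galectin-1 replicate 2, and Snora70 inside Rpl10 had 20.4 and 42.0 FPKM with vehicle and 79.1 and 0 FPKM with galectin-1. A further 13 entries for other genes overlapped members, such as Zbtb11 at Rpl24 with a mean of 1.98 FPKM.

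The comparison of galectin-1 with vehicle asked how the lectin alters the character of LPS-treated macrophages. Of the 84 members, 80 reached a mean of 1 FPKM and were tested; Rpl26, Rpl39l, Rpl3l and Rpl10l did not. In limma with Benjamini-Hochberg adjustment none of the 80 passed, where 1.19% of all 9380 tested genes did, 57 higher (0.608%) and 55 lower (0.586%). After quantile normalization, which gives all libraries the same distribution, that split was 24 higher and 47 lower. At an unadjusted p under 0.05 there were 17 higher and 1 lower member, 18 of 80, where 12.2% of all tested genes were higher and 11.0% lower, 23.2% together. In limma without the trend none of the 80 passed, where 0.0213% of all genes (2) did, and 1 member had an unadjusted p under 0.05, where 20.7% of all genes did.

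The differences were small and mostly positive. Fold changes are differences of log2(FPKM + 1). They were positive for 73 of 80 members (91.2%) and for 50.7% of all tested genes, with medians of 0.052 and 0.0024. Most members lie at levels where positive differences were common: of the 854 tested genes that averaged 100 FPKM or more, 69.2% were positive, and the 781 that are no members had a median of 0.037. In that range 67 of 73 members (91.8%) were positive, with a median of 0.052. After quantile normalization 59 of 80 members were positive with a median of 0.026, beside 0.011 for the 781 other genes. The median standard error of a member's fold change was 0.032, and replicates of 1 group lay a median of 0.041 (vehicle) and 0.038 (galectin-1) apart, while the median size of a member's fold change was 0.058.

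**Figure D3:**
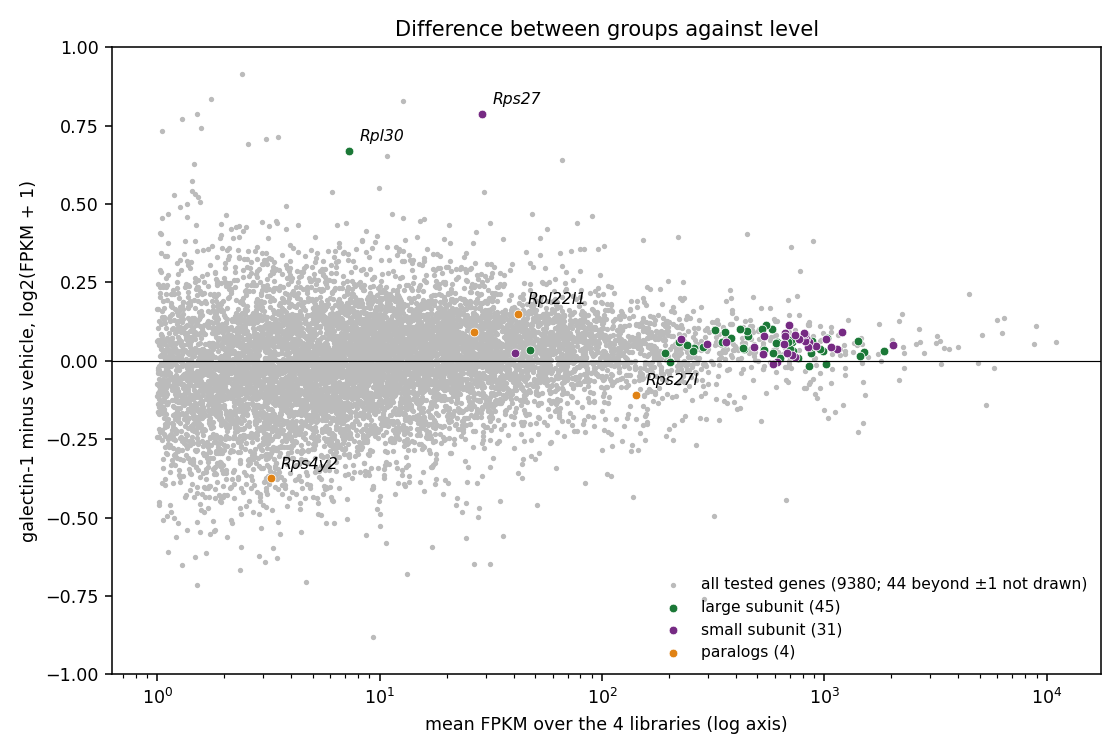
Galectin-1 minus vehicle on the log2(FPKM + 1) scale against mean FPKM (log axis) for the 9380 tested genes (grey; 44 beyond 1 in size are not drawn) and the 80 tested members by class. The 73 members above 100 FPKM lie between -0.11 (Rps27l) and 0.11, 67 of them above 0, while Rps27 (0.79), Rpl30 (0.67) and Rps4y2 (-0.37) lie apart at low levels.

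The groups did not overlap for 47 higher and 3 lower members of 80, where 29.1% of all tested genes were higher and 26.2% lower without overlap. Among genes of at least 100 FPKM 48.4% were higher and 17.9% lower without overlap, and of the 73 members in that range 44 (60.3%) were higher and 2 lower. Of these 73 members 17 (23.3%) were higher at an unadjusted p under 0.05 and none lower, where 25.5% of all genes at that level were higher and 10.1% lower, 35.6% together. By the adjusted p none of the 73 passed, where 4.1% of the genes at that level did, 2.22% higher and 1.87% lower.

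The libraries themselves were ordered. Galectin-1 replicate 1 was the highest library for 52 members, galectin-1 replicate 2 for 19, vehicle replicate 1 for 6 and vehicle replicate 2 for 3, and vehicle replicate 2 was the lowest for 50. Over all tested genes galectin-1 replicate 1 was the highest for 24.7%. Relative to vehicle replicate 1, the median member stood at -0.026 in vehicle replicate 2 and at 0.048 and 0.022 in galectin-1 replicates 1 and 2 (log2). For the 781 other genes of at least 100 FPKM these medians were 0.0092, 0.039 and 0.036. The members' median fold change was 0.035 without galectin-1 replicate 1, 0.039 without vehicle replicate 2, 0.064 without galectin-1 replicate 2 and 0.068 without vehicle replicate 1.

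As a share of the library total, the members held 9.11% and 9.14% of FPKM with vehicle and 9.36% and 9.22% with galectin-1, 9.13 ± 0.0168% and 9.29 ± 0.0961% (SD, n = 2 per group). The groups did not overlap, and the exact permutation test gave a 2-sided p of 0.333, the smallest that 2 against 2 libraries allow. Small RNA entries, which swing between libraries, made up 3.52% and 1.42% of the totals with vehicle and 2.11% and 1.82% with galectin-1. With them left out of the total, the shares were 9.45% and 9.27% with vehicle and 9.56% and 9.39% with galectin-1, and the groups overlapped. The gap of 0.164 percentage points between the group means was 0.0959 without galectin-1 replicate 1 and 0.232 without galectin-1 replicate 2. The ratio of small to large subunit FPKM was 0.785 and 0.791 with vehicle and 0.799 and 0.79 with galectin-1, so the groups overlapped there too.

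Both subunits had mostly positive differences. Of 45 tested large subunit members 42 were positive with a median of 0.044, and of 31 small subunit members 29 were positive with a median of 0.061; none of either passed. The difference between the subunits was not tested. Among members of smallest p, Rpl24, a large subunit protein at the bridge to the small subunit (chr16:55966275-55971437), had 522.8 and 522.1 FPKM with vehicle and 572 and 559 FPKM with galectin-1. Both galectin-1 libraries lay above both vehicle libraries, by 0.11 (standard error 0.027, limma adjusted p = 0.0986). With only the 854 genes of at least 100 FPKM tested, Rpl24 was the single member of 73 that passed (limma adjusted p = 0.0421), where 139 of the 854 genes (16.3%) did.

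Rpl8, a large subunit protein near the peptidyl transferase centre (chr15:76904071-76906318), had 504 and 507 FPKM with vehicle and 549 and 537 FPKM with galectin-1. The groups stood apart by 0.10 (standard error 0.027, limma adjusted p = 0.114). Rps12 (chr10:23785183-23787383) had 1171 and 1149.5 FPKM with vehicle and 1251 and 1219.9 FPKM with galectin-1, a difference of 0.090 (adjusted p = 0.138). In each case the gap was about 3 standard errors or more and missed the threshold over all genes.

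The 3 P stalk proteins form the arm of the large subunit that recruits elongation factors. Rplp0, the base of the stalk, had 677 and 669 FPKM with vehicle and 696 and 706 FPKM with galectin-1, without overlap (0.059, limma adjusted p = 0.249). Rplp1 had the values given above, with vehicle replicate 2 alone below the others (0.031, adjusted p = 0.596). Rplp2 had 885 and 819 FPKM with vehicle and 907 and 849 FPKM with galectin-1, and its groups overlapped (0.044, adjusted p = 0.639).

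Some ribosomal proteins have described roles outside the ribosome in inflammatory signalling, and 6 members were listed under this heading. They include Rps6, Rps27a and Rpl22, for which the role given below is of another kind. All 6 differences were positive, from 0.035 to 0.11, where 73 of all 80 tested members (91.2%) were positive. None of the 6 passed. Rps19, whose dimer attracts monocytes and whose loss causes Diamond-Blackfan anaemia, had 649.8 and 676 FPKM with vehicle and 718 and 716 FPKM with galectin-1 (0.11, standard error 0.030, limma adjusted p = 0.111; chr7:24884592-24889811). Its galectin-1 values lay above both vehicle values.

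Rpl13a, which is released from the ribosome on interferon gamma signals and silences inflammatory mRNAs, had 398 and 406 FPKM with vehicle and 432 and 431 FPKM with galectin-1 (0.10, limma adjusted p = 0.115; chr7:45125563-45128745). The galectin-1 libraries were again both higher. Rps3, a binding partner of the NF-kB subunit p65, had 221 and 219.9 FPKM and 234 and 228 FPKM (0.069). Rps6, the target of S6 kinase whose tract is shown above, had 362 and 344 FPKM and 369.9 and 366 FPKM (0.061).

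Rps27a, made as a fusion with ubiquitin, had 820.3 and 789 FPKM with vehicle and 857 and 824 FPKM with galectin-1 (0.064), the groups a few FPKM apart. Rpl22, which binds RNA and is needed in developing T cells, had 48.1 and 46.1 FPKM and 48.9 and 47.6 FPKM, with overlap (0.035). Positive differences were the rule among members (73 of 80, 91.2%), and the further members listed for disease or stress that were tested gave the same sign. Of 16 listed Diamond-Blackfan anaemia genes 15 were tested and 15 were positive (median 0.061). Of members described to bind Mdm2 only 3 were listed, Rpl5, Rpl11 and Rpl23, and these were positive with a median of 0.037. None of these passed.

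Rps27 and Rpl30 had the highest fold changes, on unsteady values. For both, given per library above, galectin-1 replicate 1 was far above the other 3 libraries and the groups overlapped (Rps27 0.79, standard error 0.45, limma adjusted p = 0.356; Rpl30 0.67, standard error 0.33, adjusted p = 0.289). Without that library the difference was 0.12 for Rps27 and 0.16 for Rpl30.

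The paralogs did not share one sign, and 4 of the 7 were tested. Rps27l, a p53 target and the paralog of Rps27 (chr9:66944624-66949522), had 149 and 144.4 FPKM with vehicle and 144.3 and 128 FPKM with galectin-1. The groups were apart by less than 1 FPKM and the difference was -0.11 (standard error 0.059, limma adjusted p = 0.331). Rpl22l1, the paralog of Rpl22 (chr3:28805508-28807424), had 38.8 and 40.6 FPKM with vehicle and 47.0 and 41.4 FPKM with galectin-1, without overlap (0.15, adjusted p = 0.247). Rpl7l1, which acts in the making of the large subunit, had 26.3 and 24.9 FPKM and 26.9 and 27.8 FPKM (0.090).

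Rps4y2 is named Rps4l in RefSeq, where it is a transcribed pseudogene at chr6:148354656-148355596. It had the smallest p of any member, with 3.63 and 3.95 FPKM with vehicle and 2.57 and 2.81 FPKM with galectin-1. Both galectin-1 libraries lay below both vehicle libraries, and the difference of -0.37 (standard error 0.088, limma adjusted p = 0.0960) missed the threshold. It was also the tested member nearest to the minimum of 1 FPKM, with a mean of 3.24 FPKM. Just outside it lay Rpl39l, a paralog known from testis, with a mean of 0.561 FPKM. Rpl3l, the striated muscle form of Rpl3, was above 0 in vehicle replicate 2 alone (0.179 FPKM), and Rpl10l, a testis paralog of X-linked Rpl10, was listed at 0 in all libraries.

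Among the lowest differences of the core members were Rpl34, with 855.8 and 852 FPKM with vehicle and 841 and 848 FPKM with galectin-1 (-0.016, limma adjusted p = 0.745), and Rpl32, with 1071 and 983 FPKM and 1038 and 997 FPKM (-0.011). Rpl34 was lower without overlap, by under 2% of its level in the means 853.9 and 844.5 FPKM, and the groups of Rpl32 overlapped.

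**Figure D4:**
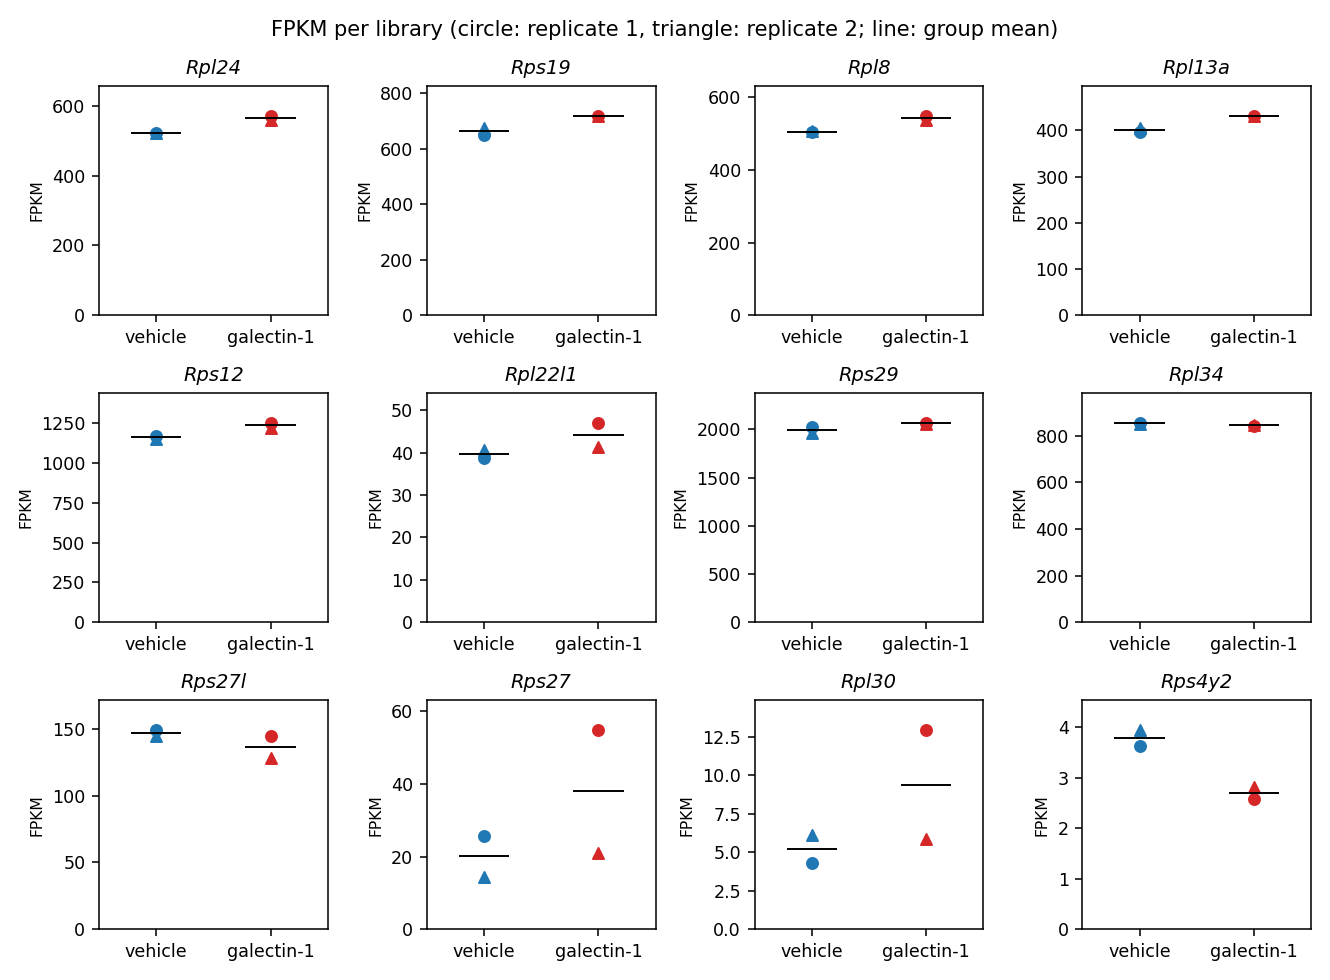
FPKM in each library for 12 members, with axes from 0 (circle replicate 1, triangle replicate 2, line group mean). Rpl24, Rps19, Rpl8, Rpl13a and Rps12 show small gaps between groups, Rps27 and Rpl30 show 1 high galectin-1 library, and Rps4y2 is lower with galectin-1.

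Other parts of the translation machinery were measured beside the members. The 4 ribosomal proteins that the name rule does not reach had a median of 0.060, and none passed. Fau, which encodes a fusion holding a small subunit protein, had 943 and 973 FPKM with vehicle and 1003 and 1034 FPKM with galectin-1 (0.088, limma adjusted p = 0.168), and the small subunit scaffold gene Gnb2l1 483 and 508 FPKM and 522 and 518 FPKM (0.070).

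Elongation factors and other transcripts with TOP tracts, 19 genes, were positive for 17 with a median of 0.057, and none passed. Of all tested genes 50.7% were positive, and of those of at least 100 FPKM 69.2%. Eef2, the translocase of elongation, had 379.6 and 382 FPKM with vehicle and 415 and 421 FPKM with galectin-1 (0.14, limma adjusted p = 0.0731). Pabpc1, the poly(A) binding protein, had 299.3 and 298 FPKM and 327 and 324 FPKM (0.12, adjusted p = 0.0861). Both passed when only genes of at least 100 FPKM were tested, with adjusted p of 0.0247 and 0.0296.

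Of 26 other initiation factors 2 rose, none fell and 24 did not pass, with a median of 0.067. Of all tested genes 0.608% rose and 0.586% fell. Positive differences were found for 18 of the 26 (69.2%), where 50.7% of all tested genes were positive. Eif4a1, the helicase that opens the mRNA 5′ end, rose from 355 ± 4.71 to 408 ± 3.48 FPKM (SD, n = 2 per group; 0.20, limma adjusted p = 0.0446). Eif5, which triggers GTP hydrolysis at the start codon, rose from 49.4 ± 1.08 to 60.9 ± 1.21 FPKM (0.30, limma adjusted p = 0.0446). Quantile normalization ended both calls, with adjusted p of 0.0669 and 0.0637.

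Genes that make ribosomes were measured as well. Of 40 tested biogenesis factors 17 were positive and 23 negative, the median was -0.026 and none passed. Nop16 had 2.78 and 3.21 FPKM with vehicle and 4.57 and 4.65 FPKM with galectin-1 (0.49, limma adjusted p = 0.0614), and Ltv1, a small subunit assembly factor, 22.3 and 22.4 FPKM and 19.2 and 19.6 FPKM (-0.19, adjusted p = 0.0952). Of 26 RNA polymerase I and III genes 20 were negative, with a median of -0.098. Over all tested genes 50.7% were positive and 1.19% passed. The median level of this list was 5.57 FPKM, far below that of the members, and the part of level was not tested. Znrd1, a polymerase I subunit, fell (-0.53, limma adjusted p = 0.0368), with 12.1 ± 0.379 FPKM for vehicle and 8.06 ± 0.172 FPKM for galectin-1 (SD, n = 2 per group), while none rose and 25 did not pass.

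Mitochondrial ribosomal proteins, which serve the separate ribosome of mitochondria, were negative for 51 of 76, with a median of -0.077. Of all 9380 tested genes 4626 were negative, and 0.586% fell past the threshold. Mrpl44 fell (-0.43, limma adjusted p = 0.0453), with 11.7 ± 0.516 FPKM for vehicle and 8.42 ± 0.0221 FPKM for galectin-1 (SD, n = 2 per group), while none rose and 75 did not pass. Quantile normalization ended that call (adjusted p = 0.0551). These genes lie far lower, with a median level of 12.7 FPKM against 608 FPKM for the cytosolic members. The difference between the cytosolic and mitochondrial lists was not tested.

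The 18 tested regulators of ribosomal protein translation had a median of -0.0079 with 8 positive, and the 19 genes of ribosome-associated chaperones, quality control and recycling 0.0025 with 10 positive. Of the 11 small nucleolar RNA hosts without a ribosomal product 7 were positive, with a median of 0.040. None of these lists had a member past the threshold. For comparison, 50.7% of all tested genes were positive and 1.19% passed. The calls of Eif4a1, Eif5, Znrd1, Mrpl44 and Fscn1 were each lost when any 1 of the 4 libraries was left out, with adjusted p from 0.167 to 0.227, and without the trend or the filter. Their differences without 1 library kept their sign: 0.19 to 0.22 for Eif4a1, 0.27 to 0.32 for Eif5, -0.56 to -0.50 for Znrd1, -0.47 to -0.39 for Mrpl44 and -0.50 to -0.44 for Fscn1. Such a fit leaves 1 library in a group, which is assumed to vary like the libraries of the other group.

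**Figure D5:**
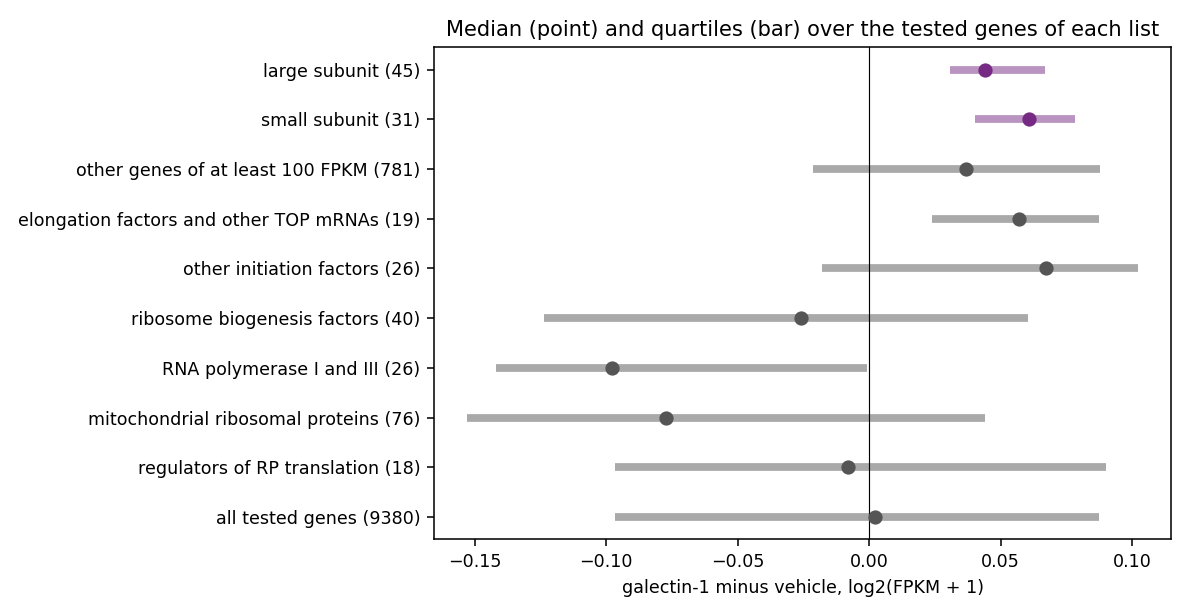
Median (point) and quartiles (bar) of galectin-1 minus vehicle, log2(FPKM + 1), for each list, with the number of tested genes in brackets. The large and small subunit medians are 0.044 and 0.061, the polymerase I and III median is -0.098, and the median over all tested genes is 0.0024.

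Most differences were positive with and without the promoter letters described above. The 36 tested members with a TOP tract near an annotated start had a median of 0.059 with 34 positive, and the 23 with windows but no tract one of 0.052 with 23 positive. For members with CCGGAAG the median was 0.050 (22 of 24 positive), and for those with windows and no such letters it was 0.061 (35 of 35 positive).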

How the data were processed

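Poly(A) RNA was sequenced in 2 vehicle and 2 galectin-1 libraries, grouped and numbered by their titles. FPKM values, fragments scaled to transcript length and to mapped fragments, were deposited by the authors, 1 per gene symbol and library. Per the submitters' processing notes, which state no roles, the tools were Cufflinks 2.2.1, TopHat2 2.0.13, SAMtools 0.1.19 and Bowtie2 2.2.3, on mm10. The sources used here do not name the gene annotation, the use of strand or the treatment of reads that fit several places, which bears on genes with many processed copies. FPKM are not counts, so no count model was fitted. Low genes under 0.3 FPKM gave depths of 0.881 to 1.02 relative to vehicle replicate 1, from ratios within 0.015 (natural log) of the commonest; absolute depth is unknown, so no counting intervals are given.

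The members were found by symbol, leaving out Rps6k and -ps names. All 9380 genes that averaged 1 FPKM or more were fitted as log2(FPKM + 1) in limma 3.58.1 (R 4.3.3), with a variance trend, 2 residual and 3.89 prior degrees of freedom, a 2-sided test and Benjamini-Hochberg adjustment over all tested genes at 0.05. The fit was tested on simulated data. Alternatives were a pseudocount of 0.1, minimums of 5 and 100 FPKM or none, quantile normalization, median centring, no trend, a replicate block and each library left out. A split of members by shared 50-base words was added after the data were seen. Positions are from RefSeq on GRCm38.p6, the assembly of mm10; 82 members matched by symbol and 2 by synonym. Start windows are RefSeq's, and transcripts are GENCODE release M21's, 1 principal coding transcript per gene.

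Some items are not reported here. The members and gene lists were chosen with earlier results of these data known. Members named are those of highest level, smallest p, highest and lowest difference, the P stalk and the paralogs. Named too are those listed for inflammatory signalling, those beside the expression minimum, and those past the threshold. From other lists, genes past the threshold or otherwise the 2 of smallest p are named, not all of them here, and from each marker list the highest gene. Members under 60 FPKM, Rpl26 and Rpl9 were named after their values were seen.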

Additional observations from a re-analysis of the deposited data

How the results depend on the processing

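None of the tested members passed in limma under a pseudocount of 0.1, a minimum of 5 FPKM, no filter, quantile normalization, median centring, no trend or with any library left out; 1 passed at a minimum of 100 FPKM (Rpl24). Over all tested genes the 112 calls became 226 at a minimum of 5 FPKM, 3 with no filter, 71 after quantile normalization, 139 of 854 at a minimum of 100 FPKM, 2 without the trend and 12 to 16 with 1 library left out. The sources used here do not say whether same-numbered libraries are paired. Deviations of same-numbered libraries correlated at 0.0114 over the tested genes, which with 2 libraries per group cannot exclude a pairing. With the replicate block there were 240 calls among 9380 genes, 1 of them a member (Rps27, limma adjusted p = 0.0348). The members' median of 0.052 was 0.026 after quantile normalization and stayed positive under the other alternatives run. Among members with under 50% of their words shared, an alternative added after the data were seen, 44 of 50 were positive and the gap in the share of FPKM was 0.0791 percentage points in place of 0.164; that gap was 0.0959 to 0.232 with 1 library left out. Single genes near 0 changed sign: Rpl22 (-0.0068 after quantile normalization) and, with 1 library left out, Rpl38 (-0.0048 to 0.061), Rpl32 (-0.073 to 0.050), Rplp1 (-0.0037 to 0.065), Rps28 (-0.017 to 0.093), Rplp2 (-0.013 to 0.0996), Rpl41 (-0.0042 to 0.034), S100a8 (-0.43 to 0.62) and Cd79b (-0.25 to 0.090). The causes were not tested. The absolute depth is unknown, and 2 libraries per group limit the precision of every value.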
